A study of Homo sapiens with 2 samples.

Results

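The genes described here make cholesterol, sense its level or answer to the sterol-regulated transcription factors called SREBPs. The list holds 31 genes, chosen by name, and each of them was found once among the 61487 genes of the count tables. The counts come from single human cells, grown from the embryonic stem cell line H9 (WA09) and collected at day 42 of a differentiation towards serotonin neurons. Both lines carried EGFP knocked in at TPH2, the gene of the enzyme that starts serotonin synthesis in neurons, and EGFP-positive cells were sorted before droplet capture. The line called WT had no other stated change. The line called FKO was also a FOXA2 knockout, made on a background in which an indel shifts the reading frame to an early stop, and it goes back to a picked clone. The dose of the SHH pathway agonist purmorphamine given to the sequenced cells was not given in the sources used here. There was 1 library per genotype, so nothing below was tested between genotypes, and every interval covers counting error only.

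The labels were checked first. FOXA2, a transcription factor of the floor plate, had 334 UMIs (unique molecules counted) in the WT-labelled library and 1265 in the library labelled FKO. Scaled to the total of each library (CPM) these were 4.35 and 21.8, so the count was higher under the knockout label. A count at the 3' end of the transcript does not read a small change in the coding sequence and cannot check the edit, and the libraries are therefore called by their labels throughout. TPH2 was present in both, at 198 CPM in the WT-labelled library and 161 CPM in that labelled FKO. All 9 markers of serotonergic neurons were detected in each library, with a summed level of 2928 and 2466 CPM and FEV as the most abundant. Of the deposited barcodes, 5749 of 11052 were kept in the WT-labelled library and 6978 of 8806 in that labelled FKO. The kept cells held 76805355 and 57909575 UMIs, with a median of 12460 and 6927 per cell. The libraries shared 21 barcodes, 5 of them among kept cells.

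Cells build cholesterol from acetyl-CoA by way of mevalonate, isoprenoid diphosphates, squalene and lanosterol. When sterols in the endoplasmic reticulum run low, SCAP carries the SREBP precursors to the Golgi, where proteases free the active factors, and INSIG proteins hold SCAP back when sterols are plentiful. Growing neurons need cholesterol for axons, dendrites and synaptic vesicles, and in the mature brain much of it reaches them from astrocytes on particles built around APOE.

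The enzymes of sterol synthesis and the remaining genes of the list lay on different sides of the average gene. A log2 ratio of FKO over WT was taken from the pooled CPM of each gene, and the median ratio of the 9676 genes with at least 10 CPM in either library, 0.47, was subtracted. The values called relative below are after this step. The median relative ratio was -0.39 over the 20 enzymes from ACAT2 to DHCR7 and 0.42 over the other 11 genes, which code for sterol sensors, carriers and fatty acid enzymes. Against genes of like length these medians were -0.18 and 0.55. All 11 of these were above the median gene, against 7 of the 20 enzymes. Over the 31 genes together the median was 0.11. Its sign was not stable, at -0.10 in cells with at most 5% mitochondrial UMIs and -0.0013 with the median over genes of at least 1 CPM. Without the subtraction, 11 of the 20 enzymes and all 11 other genes had a higher CPM in the library labelled FKO.

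Counted past 1.5-fold, the list as a whole did not stand out. Of the 29 genes at 10 CPM or more in either library, 6 were lower relative to the median, where 23.4% of all genes compared were, and 4 were higher, where 17.9% of all genes were. All 6 that were lower are sterol synthesis enzymes, namely ACAT2, PMVK, FDPS, TM7SF2, NSDHL and EBP. Of the 20 enzymes, 6 were thus lower, where 23.4% of all genes were, and 1, AACS, was higher, where 17.9% were. The 4 that were higher were AACS, FASN, SCD and APOE. With no median subtracted the same counts were 2 lower and 13 higher, against genes of like length they were 3 and 4, and with the median taken over genes of at least 1 CPM they were 9 and 3. In cells with at most 5% mitochondrial UMIs they were 8 and 2, and APOE was then below the median gene at -0.14, as it was without 2 small clusters described below. The shares of all genes, 23.4% and 17.9%, belong to the main setting only and cannot be set beside these other counts. With no median subtracted every gene lies 0.47 higher. SREBF1 and ABCA1 were under 10 CPM in both libraries, and APOE reached it in the library labelled FKO only. Just past the limit were SCD at 0.67 and AACS at 0.70, and just inside it were HSD17B7 at -0.58, GGPS1 at -0.51 and LSS at 0.51.

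**Figure D1:**
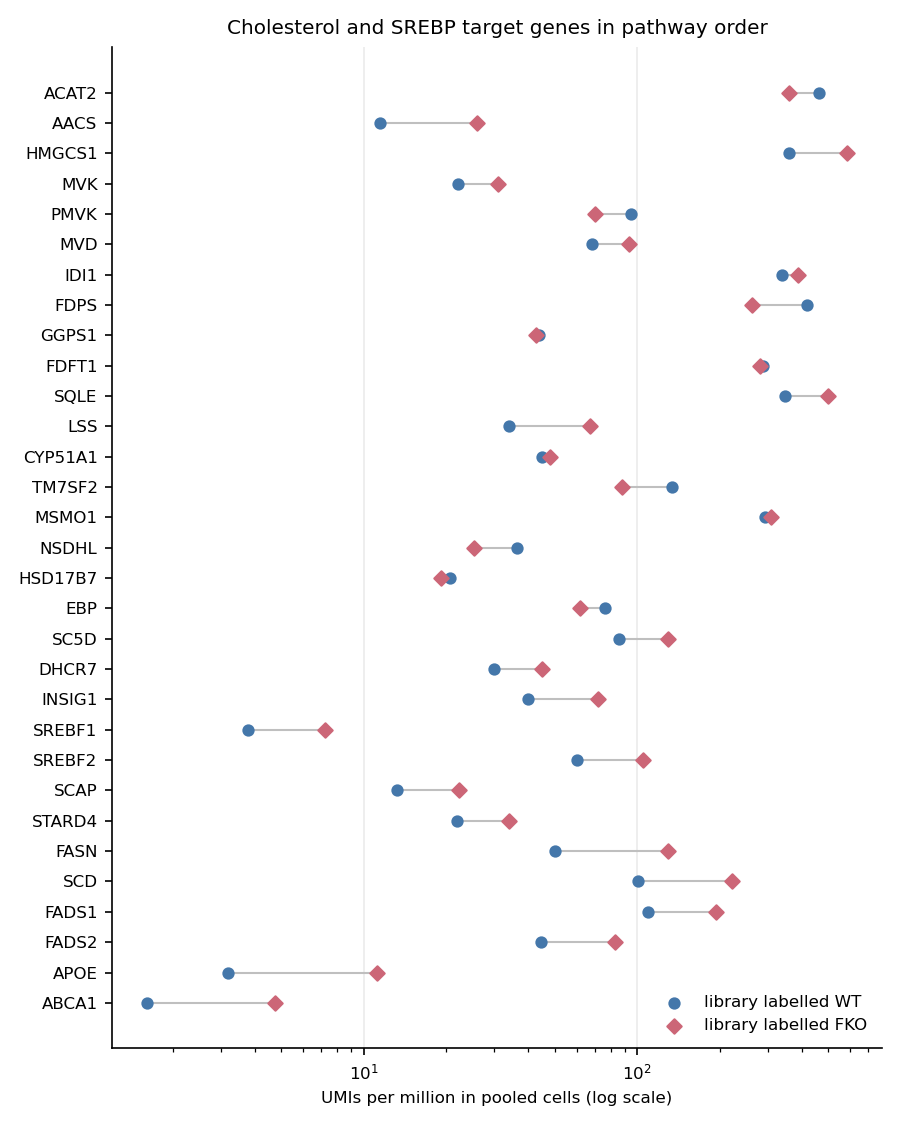
Pooled level of each of the 31 genes in the 2 libraries, in pathway order from acetyl-CoA to export. The horizontal axis is CPM on a log scale, circles stand for the library labelled WT and diamonds for that labelled FKO. From INSIG1 down to ABCA1 every diamond lies to the right of its circle.

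**Figure D2:**
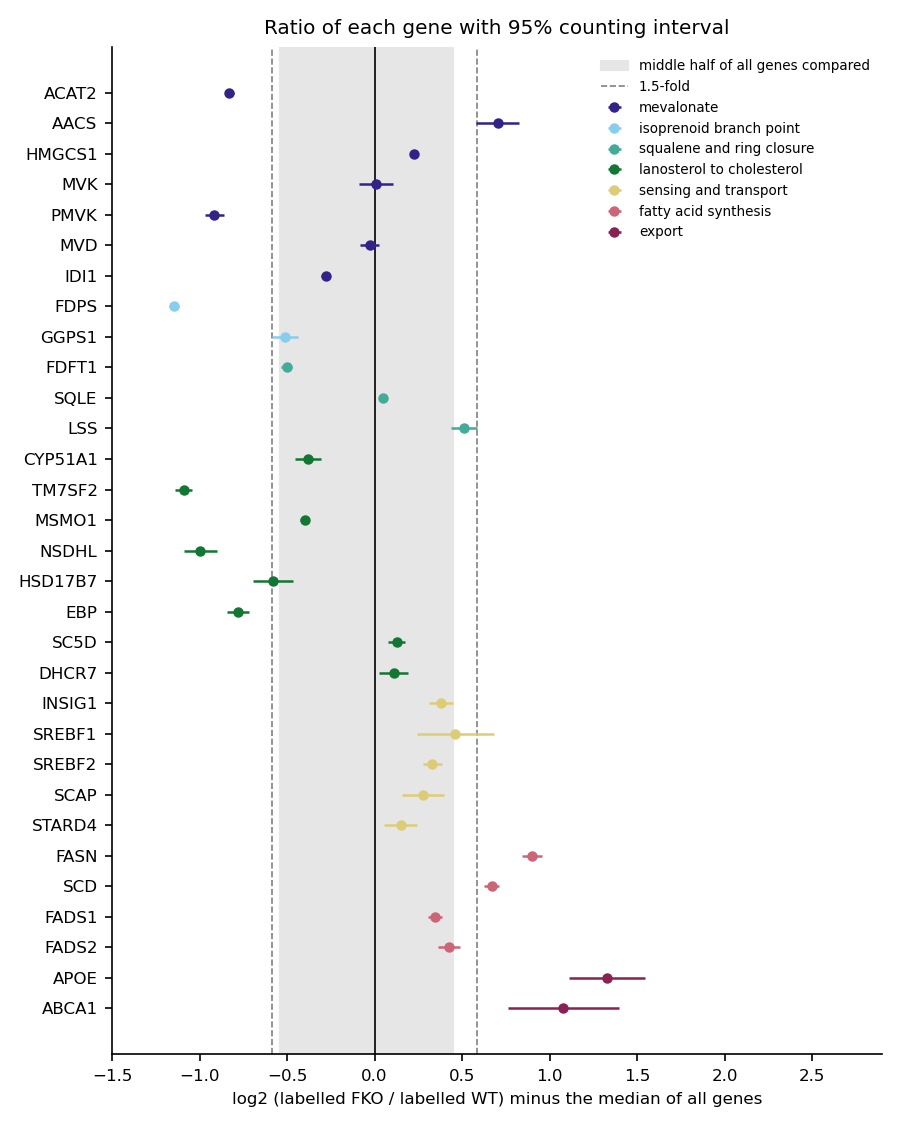
Relative log2 ratio of each gene, colored by its role, with a 95% interval for counting error. The grey band spans the middle of all 9676 genes, from the 25th to the 75th percentile (-0.54 to 0.45), and dashed lines mark 1.5-fold. FDPS lies farthest to the left at -1.15.

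The promoters of these genes were searched for the letters of the elements through which SREBPs act, since SREBPs often act together with the CCAAT-binding factor NF-Y. Windows of 300 bases around the transcription start, from RefSeq on GRCh38.p14, were at hand for 27 of the 31 genes and not for ACAT2, FDFT1, SQLE and FASN. CCAAT, read on both strands, was in a window of 20 of these 27 genes and in a window of 39.7% of 27305 genes in the table. It was found more than once in a window of 12 of the 27 genes and of 12.9% of all genes. TCACNCCAC, a form of the sterol regulatory element, was in the window of 1 of the 27, SREBF2, and of 1.39% of all genes. AACS, PMVK, CYP51A1, SREBF1, SCAP, FADS1 and ABCA1 had neither. A match is a run of letters and not a measured binding site.

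Printed here are 3 of these windows, for a mevalonate enzyme and a later sterol enzyme whose transcripts varied together from cell to cell, and for SREBF2 as the single window with both elements. Each runs 5' to 3' on the strand of the gene, and capitals mark CCAAT or its complement ATTGG and, in SREBF2, TCACCCCAC. HMGCS1 lies on the minus strand (chr5:43313363-43313662) and has ATTGG in 2 places, 155 and 100 bases before the start. The other window of this gene (chr5:43313132-43313431) has neither element and is not printed. MSMO1 lies on the plus strand (chr4:165327419-165327718) and has the element in 4 places. SREBF2 lies on the plus strand (chr22:41832855-41833154), with TCACCCCAC 133 bases and ATTGG 106 bases before the start. The 2 elements do not overlap.
HMGCS1: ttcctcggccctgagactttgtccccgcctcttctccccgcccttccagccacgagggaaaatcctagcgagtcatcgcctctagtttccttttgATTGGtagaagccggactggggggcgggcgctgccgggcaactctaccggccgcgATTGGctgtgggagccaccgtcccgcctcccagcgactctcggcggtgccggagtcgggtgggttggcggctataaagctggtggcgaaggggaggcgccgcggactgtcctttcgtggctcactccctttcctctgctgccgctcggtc
MSMO1: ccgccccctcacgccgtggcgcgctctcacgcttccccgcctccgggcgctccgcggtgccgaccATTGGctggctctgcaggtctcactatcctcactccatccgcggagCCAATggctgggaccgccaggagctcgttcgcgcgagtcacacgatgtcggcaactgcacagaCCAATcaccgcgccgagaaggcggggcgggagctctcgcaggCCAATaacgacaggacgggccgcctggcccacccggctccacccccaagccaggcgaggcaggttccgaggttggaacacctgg
SREBF2: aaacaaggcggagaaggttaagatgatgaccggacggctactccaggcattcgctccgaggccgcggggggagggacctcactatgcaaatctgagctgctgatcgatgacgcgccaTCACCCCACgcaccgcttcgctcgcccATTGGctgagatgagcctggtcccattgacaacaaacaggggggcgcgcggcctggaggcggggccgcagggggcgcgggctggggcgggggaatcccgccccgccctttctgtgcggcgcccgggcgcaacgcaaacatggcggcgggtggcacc

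The first steps lead to mevalonate and on to isopentenyl diphosphate. ACAT2, which joins acetyl-CoA units in the cytosol, had 35386 UMIs in the WT-labelled library and 20859 in that labelled FKO, or 461 and 360 CPM. Its relative ratio was -0.83 (95% interval -0.85 to -0.81), so it was lower both before and after the median was subtracted. HMGCS1, which makes HMG-CoA, went from 360 CPM in the library labelled WT to 584 CPM in that labelled FKO and had a relative ratio of 0.23 (0.20 to 0.25). Neighbouring steps of the pathway therefore lay on opposite sides of the median gene. AACS, which activates acetoacetate for lipid synthesis, had 883 UMIs in the WT-labelled library and 1506 in that labelled FKO. These were 11.5 and 26.0 CPM, a relative ratio of 0.70 (0.58 to 0.82), and against genes of like length AACS was within 1.5-fold at 0.46.

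The kinases and the decarboxylase that follow did not move alike. PMVK, which adds the second phosphate to mevalonate, had 94.8 CPM in the WT-labelled library and 69.9 CPM in that labelled FKO, with a relative ratio of -0.92 (-0.97 to -0.86). MVK, which adds the first, had 22.1 and 30.9 CPM and a relative ratio of 0.01 (-0.09 to 0.11). MVD, which removes the carboxyl group, had 68.3 and 93.0 CPM and a relative ratio of -0.03 (-0.08 to 0.03). The intervals of MVK and MVD hold the median gene, and that of PMVK does not. IDI1, the isomerase that readies the isoprenoid unit for chain growth, had 338 and 387 CPM and a relative ratio of -0.28 (-0.31 to -0.25). It was higher by CPM and lower relative to the median, and against genes of like length its ratio was 0.17.

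Farnesyl diphosphate is the branch point from which sterols, dolichol, ubiquinone side chains and prenyl anchors are all made. FDPS, its synthase (chr1:155308748-155320666, plus strand, GENCODE on GRCh38), had the lowest relative ratio of the 31 genes. It had 32134 UMIs in the WT-labelled library and 15207 in that labelled FKO, or 418 and 263 CPM, and a relative ratio of -1.15 (-1.17 to -1.12), which is 2.21-fold lower. Of all genes compared, 6.22% had a lower ratio. The genome holds processed copies of FDPS, and 8 such copies together had 32 UMIs in the WT-labelled library and 53 in that labelled FKO. Reads that fit both gene and copy are not in the tables, so their part in the ratio was not tested. GGPS1, which lengthens farnesyl to geranylgeranyl diphosphate, had 43.9 and 42.7 CPM, a difference within counting error, and a relative ratio of -0.51 (-0.59 to -0.44).

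Squalene formation and ring closure commit the isoprenoids to sterols. FDFT1, squalene synthase, had 287 CPM in the WT-labelled library and 282 CPM in that labelled FKO, and a relative ratio of -0.50 (-0.53 to -0.47). SQLE, which adds oxygen to squalene, had 348 and 499 CPM and a relative ratio of 0.05 (0.02 to 0.07). LSS, which closes the rings to give lanosterol, had 33.9 and 67.1 CPM and a relative ratio of 0.51 (0.44 to 0.58). Along these 3 consecutive steps the ratio went from below the median gene to above it.

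The 8 enzymes that turn lanosterol into cholesterol had a median relative ratio of -0.49, and 6 of them were below the median gene. TM7SF2, a sterol reductase of the nuclear envelope and endoplasmic reticulum, had 134 CPM in the WT-labelled library and 87.6 CPM in that labelled FKO, a relative ratio of -1.09 (-1.14 to -1.04). NSDHL, which takes part in removing the methyl groups at carbon 4, had 2783 and 1463 UMIs, or 36.2 and 25.3 CPM, a relative ratio of -0.99 (-1.09 to -0.90). EBP, which shifts a double bond of the sterol ring, had 76.0 and 61.5 CPM and a relative ratio of -0.78 (-0.84 to -0.72). These were lower by CPM as well as relative to the median. Against genes of like length, NSDHL was at -1.01, while TM7SF2 at -0.42 and EBP at -0.24 were within 1.5-fold, as was PMVK at -0.56.

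MSMO1, which starts the removal of the same methyl groups as NSDHL, had 293 CPM in the WT-labelled library and 308 CPM in that labelled FKO, and a relative ratio of -0.40 (-0.43 to -0.37). CYP51A1, the cytochrome that takes the methyl group off lanosterol first, had 44.9 and 47.9 CPM and a relative ratio of -0.38 (-0.45 to -0.31). HSD17B7, a reductase of the same complex as NSDHL, had 20.7 and 19.2 CPM and a relative ratio of -0.58 (-0.69 to -0.47). It has 2 annotated copies elsewhere in the genome that held 47 and 28 UMIs, and for it too reads shared with a copy were not tested. The enzymes closest to cholesterol were above the median gene in the kept cells, but not in every setting. With at most 5% mitochondrial UMIs DHCR7 turned to -0.10 and CYP51A1 was at 0.007. SC5D, which adds the double bond at carbon 5, had 85.7 and 130 CPM and a relative ratio of 0.13 (0.08 to 0.17), and DHCR7, which reduces 7-dehydrocholesterol, had 29.9 and 44.9 CPM and a relative ratio of 0.11 (0.03 to 0.19).

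Summed over the 20 enzymes, the library labelled WT held 246269 UMIs and that labelled FKO 198595. These were 3206 and 3429 CPM, so the pooled level of the pathway was close between the libraries. Relative to the median gene the sum was lower, at -0.38 (-0.39 to -0.37). The sign therefore depends on the scale, being positive at 0.10 when nothing is subtracted and negative after subtraction, and against genes of like length the sum was at -0.14. Cells labelled FKO were shallower and had a lower mitochondrial share (median 5.33% against 7.82%), and within bins of either measure the relative ratio of the sum lay between -0.53 and -0.19. The ratio fell from -0.31 in cells with up to 5% mitochondrial UMIs to -0.53 in those between 10% and 20%, which are not among the kept cells. The part of depth and mitochondrial share in the difference was not tested beyond these bins.

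The sterol sensors were all above the median gene. INSIG1, which keeps SCAP in the endoplasmic reticulum and is itself a target of SREBPs, had 3055 UMIs in the WT-labelled library and 4167 in that labelled FKO, or 39.8 and 72.0 CPM, a relative ratio of 0.38 (0.31 to 0.45). SREBF2, which codes for the SREBP that acts chiefly on sterol genes, had 60.3 and 105 CPM and a relative ratio of 0.33 (0.28 to 0.39). SREBF1, which codes for the forms that act chiefly on fatty acid genes, had 3.76 and 7.20 CPM and a relative ratio of 0.46 (0.24 to 0.68). None of these passed 1.5-fold, but against genes of like length INSIG1 did, at 0.73. SCAP, the escort of the SREBPs, had 13.2 and 22.3 CPM and a relative ratio of 0.28 (0.16 to 0.40), and STARD4, a cytosolic sterol carrier, had 22.0 and 33.9 CPM and a relative ratio of 0.15 (0.06 to 0.24). Of the 7 other genes of SREBP cleavage and sterol sensing, which include the proteases MBTPS1 and MBTPS2 and the second INSIG gene, none passed 1.5-fold in either direction, where 23.4% of all genes were lower and 17.9% higher, and 6 were above the median.

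Fatty acid synthesis draws on the same acetyl-CoA and is also under SREBP control. FASN, the synthase of palmitate (chr17:82078333-82098332, minus strand), had 3829 UMIs in the WT-labelled library and 7490 in that labelled FKO. These were 49.9 and 129 CPM, a relative ratio of 0.90 (0.84 to 0.96). SCD, which adds the first double bond, had 101 and 223 CPM and a relative ratio of 0.67 (0.63 to 0.71). FADS1 and FADS2 desaturate polyunsaturated fatty acids. FADS1 had 110 and 194 CPM and a relative ratio of 0.35 (0.31 to 0.39), and FADS2 had 44.6 and 83.2 CPM and a relative ratio of 0.42 (0.36 to 0.49). All 4 were above the median gene on every scale tried. The summed level of the 4 genes was 305 CPM in the WT-labelled library and 629 CPM in that labelled FKO, a relative ratio of 0.57 (0.55 to 0.59), and in cells with at most 5% mitochondrial UMIs SCD was within 1.5-fold at 0.47.

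Other fatty acid genes, taken from a fixed list of 10, had a median relative ratio of 0.48, and 9 of the 10 were above the median gene. Of the 9 at 10 CPM or more, 2 passed 1.5-fold and were higher, where 17.9% of all genes were. ACACA, which makes malonyl-CoA for FASN, had 35.0 CPM in the WT-labelled library and 83.7 CPM in that labelled FKO, a relative ratio of 0.78 (0.71 to 0.85). LPIN1, a phosphatase on the way to triglycerides, had 19.6 and 42.8 CPM and a relative ratio of 0.65 (0.56 to 0.75). Both are long genes, and against genes of like length they were within 1.5-fold, ACACA at 0.32 and LPIN1 at 0.28. ACLY, which supplies cytosolic acetyl-CoA, had 61.9 and 114 CPM and a relative ratio of 0.40 (0.35 to 0.46).

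Of 12 genes that use isoprenoids outside the sterol branch, 9 were below the median gene, while 7 of the 12 had a higher CPM in the library labelled FKO. Of the 8 at 10 CPM or more, 2 passed 1.5-fold and were lower, near the 23.4% of all genes. Both code for subunits of the enzyme that attaches geranylgeranyl groups to Rab proteins. RABGGTB had 32.5 CPM in the WT-labelled library and 25 CPM in that labelled FKO, a relative ratio of -0.85 (-0.95 to -0.76), and RABGGTA had 12 and 9.62 CPM, a relative ratio of -0.80 (-0.95 to -0.64). Against genes of like length both were within 1.5-fold, at -0.36 and -0.23. Of 14 genes of sterol uptake, storage, oxidation and export, 8 were at 10 CPM or more. LRP8, a receptor for APOE and reelin, had 30.9 and 92.2 CPM and a relative ratio of 1.10 (1.03 to 1.17). VLDLR, its close relative, had 10.2 and 25.5 CPM and a relative ratio of 0.85 (0.72 to 0.97). CYP46A1, the neuronal enzyme that turns cholesterol into a form able to leave the brain, had 11.6 and 26.5 CPM and a relative ratio of 0.71 (0.59 to 0.83). These 3 of the 8 passed 1.5-fold upward, where 17.9% of all genes did, and NPC2, which hands cholesterol out of the lysosome, was the 1 of the 8 to pass it downward, where 23.4% of all genes did, with 50.3 and 41.2 CPM and a relative ratio of -0.76 (-0.83 to -0.69). At like length NPC2 was within 1.5-fold, at -0.54, and the 3 others were not.

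APOE and ABCA1 serve export. ABCA1 pumps cholesterol onto apolipoproteins. APOE had 246 UMIs in the WT-labelled library and 647 in that labelled FKO, or 3.20 and 11.2 CPM, and a relative ratio of 1.33 (1.11 to 1.55). ABCA1 had 124 and 274 UMIs, or 1.61 and 4.73 CPM, and a relative ratio of 1.08 (0.77 to 1.39). To see which cells hold APOE, the cells were divided into clusters with all 31 genes and the other pathway genes kept out of the clustering features.

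Of the 9 clusters, 8 had at least 50 cells in each library. They are called by number, since the leading genes of cluster 3 include the progenitor gene SOX2. All 9 serotonergic markers were detected in every cluster with cells, at a summed 2369 to 3879 CPM in clusters 1 to 4. Cluster 5 was led by genes that include SST, LHX9 and SLC17A6 and held 633 and 1127 CPM of the serotonergic markers. Cluster 6 was led by collagen and cell cycle genes, among them COL1A1 and TOP2A, and cluster 7 by stress genes, among them ATF3 and DDIT3. Cluster 8 was shallow, with a median of 2373 and 2540 UMIs per cell in WT-labelled and FKO-labelled cells. Cluster 9 had 101 cells of the library labelled FKO and 0 of the other, and its leading genes include S100B and ERBB3.

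In the library labelled FKO, APOE was concentrated in clusters 6 and 9, and in that labelled WT it was not, with 228 of its 246 UMIs outside cluster 6. In cluster 6 it had 18 UMIs in the WT-labelled library and 334 in that labelled FKO, or 5.32 (3.16 to 8.42) and 111 (99.2 to 123) CPM, and in cluster 9 it had 158 UMIs or 173 CPM (147 to 202). Cluster 6 did not hold the same mix of cells in the libraries. Its mesenchymal markers summed to 734 CPM in cells labelled WT and 4231 CPM in those labelled FKO, its astroglial markers to 130 and 362 CPM and those of the oligodendrocyte lineage to 30.5 and 193 CPM. The neural progenitor markers, led by VIM, had the largest sum there and went the other way, at 8461 and 7269 CPM. So did the floor plate markers, at 901 and 672 CPM. Among cells thinned to 5000 UMIs, 40 of 93 in cluster 9 had an APOE UMI (43.0%, exact 95% interval 32.8% to 53.7%). In cluster 6 it was 31 of 184 cells of the library labelled FKO (16.8%, 11.7% to 23.1%) and 0 of 91 of that labelled WT. The latter allows up to 3.30% with 0 set to 3, and up to 3.97% by the exact interval. Before thinning the shares in cluster 6 were 24.9% and 5.41%, at median depths of 10955 and 17139 UMIs, and in cluster 9 the share was 55.4% at 7812. In cluster 2, whose leading genes include TPH2, the thinned share was 0.736% in the library labelled FKO and 0.585% in that labelled WT, at median depths of 5638 and 11002, a share that may include free RNA in the droplets. Before thinning it was 1.23% and 1.34%.

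Without clusters 6 and 9 the APOE ratio turned. There were then 228 UMIs in the WT-labelled library and 155 in that labelled FKO, or 3.11 and 2.87 CPM, and the relative ratio was -0.58 (-0.89 to -0.28). In cluster 1 alone it was -0.65 (-1.10 to -0.21). ABCA1 had 91 and 122 UMIs outside clusters 6 and 9, and its relative ratio of 0.40 (-0.01 to 0.81) included the median gene. Some marker lists were also higher in the whole library labelled FKO. All 8 mesenchymal markers were detected in each, at a summed 39.6 CPM in the WT-labelled library and 259 CPM in that labelled FKO, led by LUM at 12.1 and COL1A2 at 85.2 CPM. The 7 astroglial markers summed to 40.2 and 153 CPM, led by SLC1A2 in each at 29 and 106 CPM, and the 7 markers of the oligodendrocyte lineage to 22.3 and 54.4 CPM, led by MBP at 19.4 and 26.1 CPM, with SOX10 at 0 UMIs in the library labelled WT. The astroglial sum was higher in cells labelled FKO both in cluster 6, where APOE was higher, and in cluster 1, at 36.8 and 119 CPM, where the relative ratio of APOE was below the median gene. In cluster 1 SLC1A2 alone was at 32.4 and 111 CPM, most of that sum. In cluster 9 the astroglial sum was 1311 CPM, of which S100B alone was 1300 CPM, and only 4 of the 7 markers were detected. The mesenchymal markers there summed to 1335 CPM and those of the oligodendrocyte lineage to 692 CPM. The largest sum in cluster 9 was that of the neural progenitor markers, at 5566 CPM, of which VIM alone was 5028 CPM. Leaving out clusters 6 and 9 moved the summed 20 enzymes only from -0.38 to -0.35.

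The level of the sterol enzymes differed between clusters. Their sum was 3508 CPM (3489 to 3528) in cluster 1 of the library labelled WT and 3933 (3906 to 3959) in that of the library labelled FKO. Cluster 5 was at 3602 (3542 to 3663) and 3652 (3605 to 3700), and cluster 2 at 2966 (2941 to 2992) and 2764 (2726 to 2801). The shallow cluster 8 differed most between the libraries, at 2701 (2473 to 2945) and 3656 (3512 to 3804). The stress-gene cluster 7 had lower levels, at 1867 (1807 to 1928) and 2256 (2173 to 2342). The lowest sum of any cluster was 868 CPM (809 to 931), in cluster 9, where APOE was highest. In the library labelled WT the intervals of clusters 2 and 3 overlapped, as did those of clusters 2 and 8, while cluster 7 lay below all others.

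Within clusters, with each cluster's own median gene subtracted, most directions stayed as in the pooled cells. The summed enzymes were below the median gene in 7 of 8 clusters, from -0.59 (-0.61 to -0.57) in cluster 2 to -0.19 (-0.21 to -0.17) in cluster 3. The exception was the shallow cluster 8, at 0.14 (0.00 to 0.28), with 71 cells of the library labelled WT. FDPS was below in 8 of 8, from -1.37 (-1.45 to -1.30) in cluster 2 to -0.34 (-0.81 to 0.15) in cluster 8. The 4 fatty acid genes together were above in 8 of 8, from 0.16 (0.06 to 0.27) in cluster 6 to 1.2 (0.80 to 1.62) in cluster 8. FASN, INSIG1 and SREBF2 were each above in 8 of 8 clusters, and HMGCS1 in 7, with -0.07 (-0.14 to -0.01) in cluster 2. INSIG1 in cluster 7 was at 16.1 CPM (11 to 22.8) in the WT-labelled library, its lowest value there, though the interval overlaps those of clusters 6 and 8, and at 44.8 CPM (33.7 to 58.3) in that labelled FKO, where clusters 2 and 6 were at like levels of 45.8 and 46.1 CPM. In cluster 9 it was at 9.87 CPM (4.51 to 18.7).

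**Figure D3:**
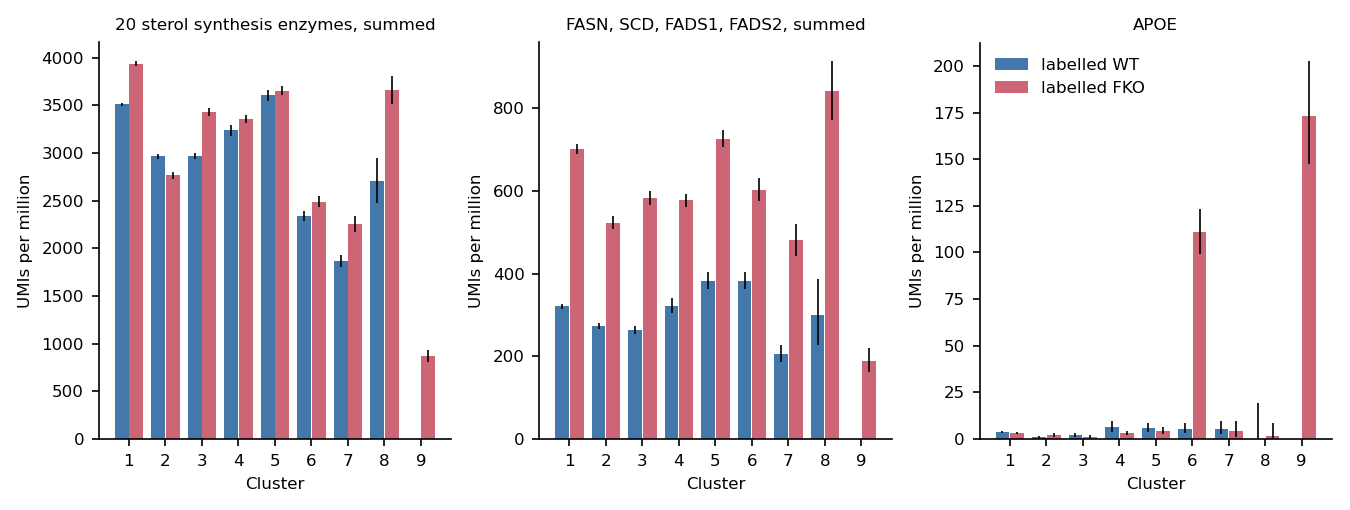
Level in each of the 9 clusters, in CPM, of the 20 summed sterol synthesis enzymes, of the 4 summed fatty acid genes and of APOE. Bars are the 2 libraries, lines the 95% counting interval, and cluster 9 has cells of the library labelled FKO only. The APOE bars of clusters 6 and 9 in that library reach 111 and 173 CPM.

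Single cells were compared at equal depth. Kept cells with 5000 to 20000 UMIs were thinned to 5000, which left 4991 cells labelled WT and 5344 labelled FKO, with 180 and 1392 shallower cells and 578 and 242 deeper ones not used. A thinned cell held a median of 15 UMIs of the 20 enzymes in the WT-labelled library and 16 in that labelled FKO. The 5th and 95th percentiles were 6 and 28 UMIs in the former and 5 and 33 in the latter, so the pooled cells labelled FKO were spread more widely to both sides. In cluster 1 alone the 5th percentile was 8 UMIs in each library and the 95th was 30 and 34. The variance was 3.31 times the mean in the WT-labelled library and 4.51 times in that labelled FKO, and in cluster 1 alone it was 2.9 and 3.4 times. In cluster 9, where the mean was 3.53 UMIs, it was 1.08 times, close to the value of 1 that counting alone gives.

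**Figure D4:**
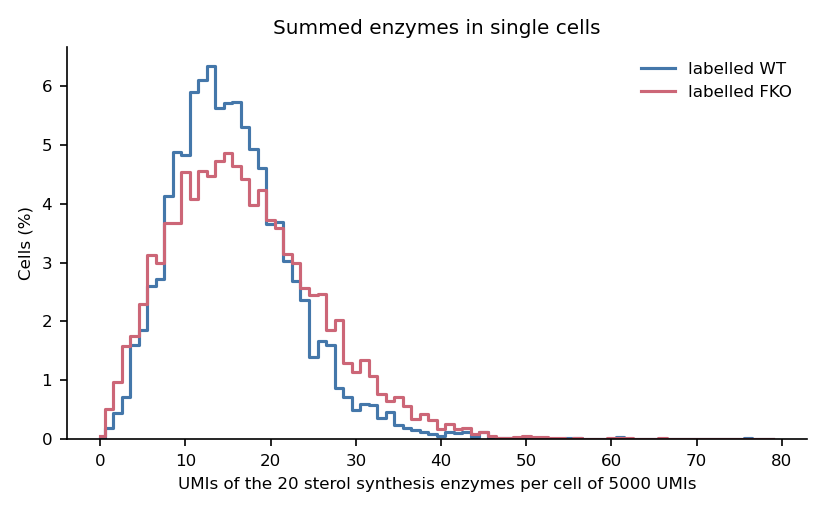
Share of cells, in percent, at each number of UMIs of the 20 sterol synthesis enzymes per cell thinned to 5000 UMIs, for 4991 cells labelled WT and 5344 labelled FKO. The curve of the library labelled FKO is lower at its peak and has more of its cells above 28 UMIs, while the single highest cell, at 76 UMIs, is labelled WT.

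The pathway's transcripts varied together from cell to cell, in each library by itself. The correlation was taken over cells of a library on log counts, for the 25 genes with a UMI in at least 10% of thinned cells of each. AACS, HSD17B7, SREBF1, SCAP, APOE and ABCA1 were too sparse. Over the 300 pairs the median Pearson r was 0.0360 in the WT-labelled library and 0.0666 in that labelled FKO. Over all pairs of 5287 genes the median was 0.0013 and 0.0010. The medians of the 300 pairs depend on the setting. Both were higher without thinning, and that of the WT-labelled library was also higher in cells with at most 5% mitochondrial UMIs (values under the dependence on processing). Of the 300 pairs, 155 in the WT-labelled library and 220 in that labelled FKO were above the 95th percentile of all pairs, and 252 were positive in both. The share of all pairs of genes that was positive in both is not given, so the 252 cannot be read against it. Cells are not replicates, they share a library, and such low values are in part set by how few UMIs each gene has. Within cluster 1, over 2093 and 1885 cells, the median of the pairs was 0.0281 and 0.0471.

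Several abundant enzymes formed a common core. ACAT2 and FDFT1 had an r of 0.244 in the WT-labelled library and 0.281 in that labelled FKO, HMGCS1 and SQLE 0.244 and 0.362, and ACAT2 and HMGCS1 0.235 and 0.372. IDI1 and MSMO1 belonged to the same core, with an r between them of 0.204 and 0.261. ACAT2 and HMGCS1 thus varied together across cells although their ratios between libraries lay on opposite sides of the median gene. FDPS, also abundant, had an r of 0.220 and 0.213 with ACAT2, but lower values with HMGCS1, at 0.110 and 0.184, and with SQLE, at 0.098 and 0.157. Each gene was also set against the sum of the enzymes other than itself. HMGCS1 had an r of 0.351 in the WT-labelled library and 0.528 in that labelled FKO, and SCD, a fatty acid enzyme outside the sum, had 0.250 and 0.412. INSIG1 had 0.204 and 0.264.

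Some members did not vary with the rest. PMVK had an r with the enzyme sum of 0.0024 in the WT-labelled library and 0.0163 in that labelled FKO. MVD, the next enzyme of the pathway, had an r of 0.184 and 0.263. GGPS1, off the path to sterols, had -0.0006 and 0.0173. SREBF2 itself had 0.0535 and 0.0795. The promoter window of PMVK held no CCAAT, and 1 of the 3 windows of GGPS1 held it. Among other genes with none, CYP51A1 had an r of 0.117 and 0.170 and FADS1 of 0.0512 and 0.130. The part of this element in the correlations was not tested.

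**Figure D5:**
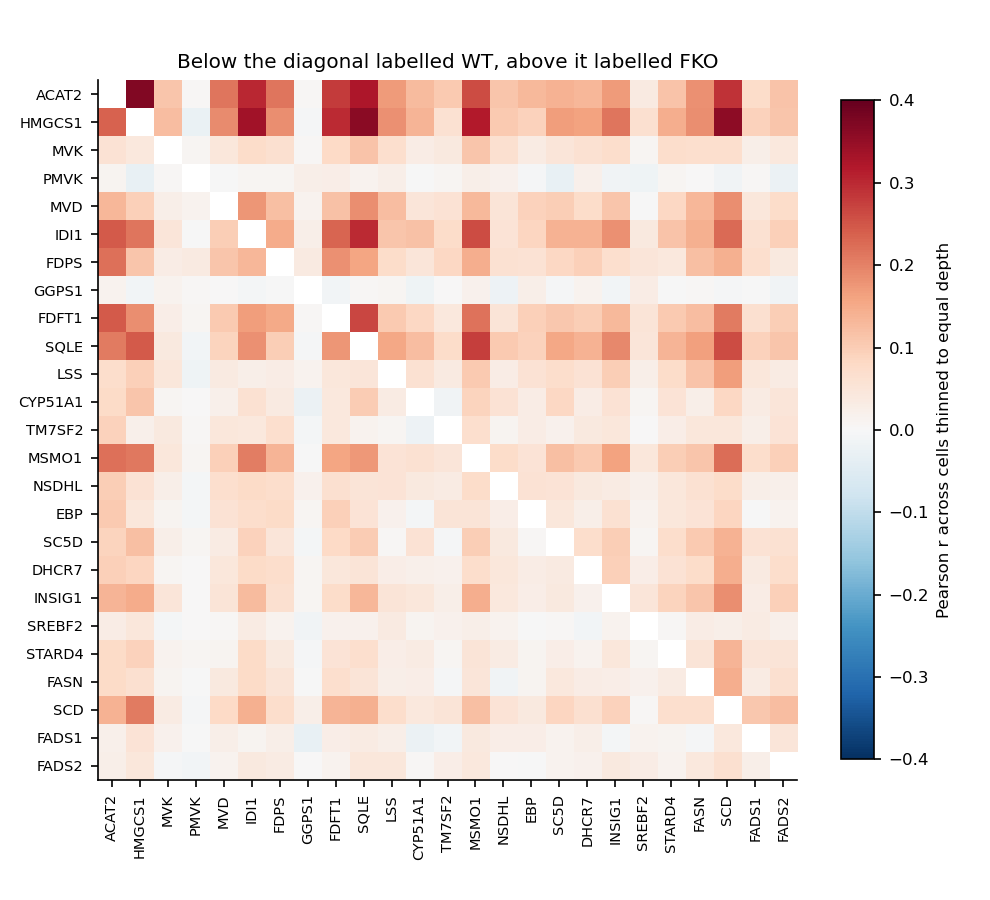
Pearson r across thinned cells between each pair of 25 genes in pathway order, below the diagonal for the library labelled WT and above it for that labelled FKO. Red squares gather among ACAT2, HMGCS1, IDI1, FDFT1, SQLE, MSMO1 and SCD, and the lines of PMVK and GGPS1 are pale.

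Outside the list, the genes most like the enzyme sum across cells were those of growing axons and of the neuronal cytoskeleton. They were ranked by the lower r of the libraries. TMSB10, an actin-binding peptide, had an r of 0.30 in the WT-labelled library and 0.325 in that labelled FKO, and STMN2, a microtubule regulator of growth cones, had 0.278 and 0.361. GAP43 and BASP1 code for proteins on the inner face of growth cone membranes. GAP43 had 0.258 and 0.406, and BASP1 had 0.231 and 0.366. The tubulins TUBB2A, TUBA1B and TUBA1A had 0.265, 0.224 and 0.196 in the WT-labelled library and 0.392, 0.230 and 0.426 in that labelled FKO. The neurofilament gene NEFL had 0.218 and 0.298, and YWHAH, which codes for a 14-3-3 protein, had 0.210 and 0.355. Within cluster 1 alone, STMN2 was at 0.122 and 0.0664 and GAP43 at 0.140 and 0.0951. TUBA1A was at 0.175 and 0.20 there, little changed in cells labelled WT and lower in those labelled FKO, and TUBA1B, at 0.177 and 0.187, changed little in either. The enzyme sum of thinned cells had an r of 0.184 and 0.108 with the log of the cell's depth before thinning, and of -0.0030 and -0.135 with its mitochondrial share.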

How the data were processed

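The deposited count tables hold UMI counts per gene and cell barcode, made from 10x 3' libraries by the authors with Cell Ranger (7.0 in the submitters' processing notes, 7.1.0 in the file headers) on GRCh38. Cells needed 1000 UMIs, 500 genes and a mitochondrial share of 10% or less. The highest Scrublet scores (scanpy 1.11.5) marked 977 of all barcodes labelled WT and 620 labelled FKO as doublets, which were left out. UMIs were summed over kept cells, and CPM and ratios were taken from these sums, with exact intervals conditional on the summed count (scipy 1.17.1, numpy 2.4.6), and a count of 0 was set to 3 in ratios and in the upper limit of a share. Cells were clustered with Seurat 5.3.0 (Louvain after integration on 2000 features, 30 dimensions, resolution 0.2), and 1517 genes, members included, were barred from the features. Positions and lengths came from GENCODE 29 on GRCh38, and promoter windows from RefSeq. The named genes are all 31 members, the other pathway genes past 1.5-fold, and the 10 other genes most like the enzyme sum across cells, of which 1 is not reported here. Other genes named for context were chosen after their values were seen. The members and lists were chosen with earlier results of these data known. The steps were tested on simulated data.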

Additional observations from a re-analysis of the deposited data

How the results depend on the processing

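With 1 library per genotype no difference could be set against variation between cultures, and depth and mitochondrial share differ between the libraries. A paired analysis was not possible with 1 library per genotype, and the labels give no replicate numbers. Of the 31 genes, 23 kept the sign of their relative ratio in 13 settings with a median subtracted, and MVK, MVD, IDI1, SQLE, CYP51A1, DHCR7, APOE and ABCA1 did not. ACAT2, FDPS, NSDHL and FASN stayed past 1.5-fold in all of them. The settings without clusters 6 or 9 were added after the data were seen.

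The median of the 31 genes (0.11) was -0.10 with at most 5% mitochondrial UMIs, -0.0013 with the median over genes of at least 1 CPM, 0.27 with 50 CPM and 0.58 with none subtracted. The 6 lower genes were 2 with none subtracted and 3 against genes of like length. The 4 higher genes were 2 at 5% and 13 with none subtracted. The shares of all genes past 1.5-fold in these settings are not given, so these counts cannot be read against them. The median of the 20 enzymes (-0.39) was -0.25 at 5%, -0.32 in thinned cells, -0.50 with 1 CPM, -0.23 with 50 CPM, 0.084 with none subtracted and -0.18 at like length.

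The summed enzymes (-0.38) were at -0.31 with at most 5% and -0.36 with at most 20% mitochondrial UMIs, -0.36 from 5000 UMIs up, -0.39 with doublets kept, -0.36 thinned, -0.39 as a mean of single-cell CPM, -0.30 in the largest cluster, -0.31 with clusters weighted equally, -0.49 with 1 CPM, -0.22 with 50 CPM, 0.10 with none subtracted, -0.14 at like length, -0.36 without cluster 9 and -0.35 without clusters 6 and 9. APOE turned to -0.14 at 5%, -0.65 in the largest cluster and -0.58 without clusters 6 and 9. The median r of pairs (0.0360 for WT, 0.0666 for FKO) was 0.0752 and 0.107 without thinning, and 0.0736 for WT at 5%.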

Other observations

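Within cluster 1, and chosen after the values were seen, TMEM97, a sterol-binding membrane protein, had an r with the enzyme sum of 0.196 in cells labelled WT and 0.285 in cells labelled FKO.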
